A study of Mus musculus with 4 samples.

Results

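The genes described here make cholesterol, sense its level in the cell and move it between compartments: 30 listed names, of which 28 genes were measured among the 19938 genes with a probe set of their own on the array. They were chosen by name, as the enzymes of the mevalonate pathway and of the steps from squalene to cholesterol, the sterol-sensing proteins and the sterol transporters, with the probe set of highest mean taken for each gene. Sc4mol is the older name of Msmo1 and was counted once, and Acat2 was not analysed here. All 28 measured genes passed the filter on low values.

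The tissue was whole skin from the back of C57Bl6 mice aged 22 days, whose follicles rest in telogen between rounds of hair growth, taken at ZT22, that is 22 h after lights on and late in the dark phase. The 2 heterozygous mice had 1 wild-type and 1 mutant copy of Bmal1 (symbol Arntl), the transcription factor that pairs with CLOCK in the circadian clock, and in the 2 knockout mice both alleles were deleted through the germline, hence in every tissue. Each mouse gave 1 Affymetrix whole-transcript array. No wild-type group was analysed here, so every difference below is knockout minus heterozygous, on a log2 scale, and the number of arrays limits its precision.

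Cholesterol is built from acetyl-CoA. The mevalonate enzymes make isoprenoid diphosphates, 2 farnesyl units are joined to squalene, and the later enzymes fold squalene into lanosterol and trim it to cholesterol. When membrane cholesterol falls, SCAP carries the transcription factor SREBP2 out of the endoplasmic reticulum to be cleaved, and SREBP2 then raises transcription of most of the enzymes; INSIG1 and INSIG2 hold SCAP back when sterols are plentiful. In skin, keratinocytes make sterols for the lipid barrier and sebaceous glands make them for sebum.

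The deleted gene read below the heterozygous range in both knockouts (Arntl difference -0.76, SE 0.12, limma adjusted p = 0.015, or 0.102 when probe sets paired with several genes were tested too). Markers of the labelled tissue were present: all 12 keratinocyte and all 8 fibroblast genes listed lay above the filter. Xist read 12.3 to 12.4 in every array, and probe sets of the Y-linked genes Kdm5d, Eif2s3y and Uty had means under the filter. Heterozygous array 2 was the lowest of the 4 arrays for 41.1% of all tested probe sets. Over all tested probe sets, 1.98% passed an adjusted p under 0.05, 11.6% were higher in the knockout at an unadjusted p under 0.05 and 6.38% were lower.

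In the knockout arrays the synthesis enzymes mostly read higher and the transporters mostly lower. Of the 18 synthesis genes, 16 were higher, with a median difference of 0.23, against 54.2% higher and a median of 0.02 over all tested probe sets. Of the 6 transport genes, 5 were lower, with a median of -0.14. With the values as deposited these counts were 17 of 18 and 5 of 6, and after median centring 17 of 18 and 4 of 6, while the share of all tested probe sets that were higher moved to 61.6% and 67.5%. One gene rose past the adjusted threshold, Hsd17b7, or 3.57% of the members against the 1.98% of all probe sets, a call that 5 of 14 alternatives ended. At an unadjusted p under 0.05, 8 members were higher, or 28.6% against 11.6%, and 0 were lower, against 6.38%. In bulk skin, fewer cells of a type and less RNA per cell cannot be told apart.

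The height of the synthesis genes rested largely on heterozygous array 2. It was the lowest of the 4 arrays for 17 of the 18 synthesis genes, and its mean over them lay 0.33 below that of heterozygous array 1, where the gap over all tested probe sets was 0.07. The knockout arrays, by contrast, differed from each other by 0.0020 in the same mean. A lower mean in heterozygous array 2 was not particular to these genes. It was below array 1 for adipocyte (10.34 against 10.81), sebocyte (10.29 against 10.66) and keratinocyte markers (11.75 against 12.02). The same held for fibroblast (11.54 against 11.78) and macrophage markers (8.70 against 8.94), but not for skeletal muscle markers (11.76 against 11.63). Without heterozygous array 2 the synthesis median was 0.06, 13 of 18 genes were higher against 47.6% of all tested probe sets, and 3 members, Hsd17b7, Lss and Insig2, were higher at an unadjusted p under 0.05, where 6.92% of all tested probe sets were. Without heterozygous array 1 the median was 0.38, 17 of 18 were higher against 59.6%, and 15 members were higher at that p, where 16.2% of all tested probe sets were.

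**Figure D1:**
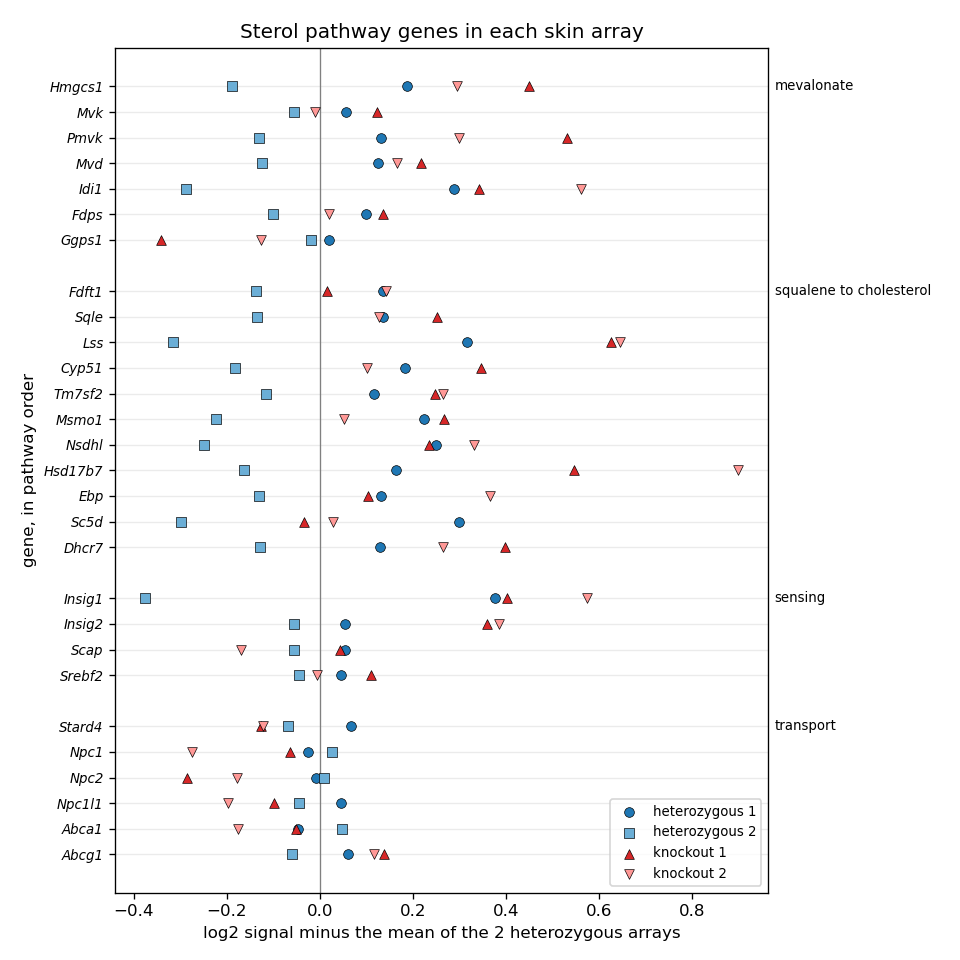
Log2 signal of the 28 sterol genes in each array, minus the mean of the 2 heterozygous arrays, with genes in pathway order from top to bottom; each point is 1 mouse. Heterozygous array 2 (pale squares) lies leftmost for 17 of 18 synthesis genes, and the knockout triangles lie left of both heterozygous arrays for 5 of 6 transport genes.

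Promoter sequences are shown for the members that met a plain rule, a match to a sterol regulatory element or to the E-box that CLOCK and BMAL1 bind, within 250 bases before an annotated start, and whose difference also had an unadjusted p under 0.05. Letters searched on both strands were TCACNCCAC for the sterol regulatory element, CACGTG for the E-box and CCAAT for the CCAAT box, where NF-Y, a partner of SREBP2, binds. RefSeq starts on GRCm38.p6 were found for 22 of the 28 genes, with 28 starts in all. The E-box letters were in 6 of these 28 windows, or 21.4%, against 6.02% of all 32851 windows of the same length. CCAAT was in 20, or 71.4%, against 33.8%, and the sterol regulatory element in 1, against 1.05% of all windows. A match is a description of the letters and not a measured binding site, and the base composition of the windows was not matched. Nor does a match say which protein binds there. Only these exact letters were searched, so variant forms of an element were not counted. In the sequences below, given 5′ to 3′ on the gene's own strand and ending at the base before the start, capitals mark these motifs, CCAAT on the other strand reading ATTGG, and none overlaps another.
Hsd17b7, chr1:169969206-169969455, minus strand, with an E-box beginning 143 bases before the start and 3 CCAAT boxes: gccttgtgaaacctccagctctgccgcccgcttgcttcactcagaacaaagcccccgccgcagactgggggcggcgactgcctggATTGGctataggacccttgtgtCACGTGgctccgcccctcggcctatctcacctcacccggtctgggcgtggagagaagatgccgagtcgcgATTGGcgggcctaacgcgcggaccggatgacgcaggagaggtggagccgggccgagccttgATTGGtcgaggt
Dhcr7, chr7:143823149-143823398, plus strand, the second of 3 annotated starts, with an E-box beginning 164 bases before it: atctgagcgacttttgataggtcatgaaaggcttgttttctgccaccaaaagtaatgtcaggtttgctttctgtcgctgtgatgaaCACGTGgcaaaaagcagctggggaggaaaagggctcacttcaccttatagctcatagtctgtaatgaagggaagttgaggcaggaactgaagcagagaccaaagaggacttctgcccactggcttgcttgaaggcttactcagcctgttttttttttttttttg
Hmgcs1, chr13:119690101-119690350, plus strand, with the sterol regulatory element beginning 137 bases before the start and 3 CCAAT boxes: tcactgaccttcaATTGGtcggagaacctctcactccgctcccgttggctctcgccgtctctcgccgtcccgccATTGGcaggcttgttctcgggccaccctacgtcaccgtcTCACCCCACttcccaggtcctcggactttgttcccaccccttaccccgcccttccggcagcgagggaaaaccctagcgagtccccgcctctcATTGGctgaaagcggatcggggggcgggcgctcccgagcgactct
Insig1, chr5:28071162-28071411, plus strand, with an E-box beginning 101 bases before the start and 1 CCAAT box: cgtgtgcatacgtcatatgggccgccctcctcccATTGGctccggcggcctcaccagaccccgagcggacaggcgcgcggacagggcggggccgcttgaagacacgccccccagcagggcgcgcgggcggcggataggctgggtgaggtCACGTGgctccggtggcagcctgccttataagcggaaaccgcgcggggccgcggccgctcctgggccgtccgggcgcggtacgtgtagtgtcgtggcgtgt

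The E-box letters were also in windows of Abca1, Scap and Sc5d, whose differences were -0.11, -0.06 and -0.0027, so that members with these letters included both the gene with the smallest p and the gene with the largest. The windows of Lss, Insig2, Pmvk and Idi1, the other members higher at an unadjusted p under 0.05, held CCAAT at 1 or more starts. They held no match to the letters of the other motifs.

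Along the mevalonate steps, 6 of 7 genes were higher, against 54.2% of all tested probe sets. The median difference was 0.19, with a range from -0.23 to 0.45. Heterozygous array 2 was the lowest array for 6 of the 7. None passed the adjusted threshold. At an unadjusted p under 0.05, 3 of the 7 were higher, against 11.6% of all tested probe sets. Pmvk, phosphomevalonate kinase, read 8.16 and 7.90 in heterozygotes (arrays 1 and 2) against 8.56 and 8.33 in knockouts. Both knockout values lay above the heterozygous range, and the difference was 0.42 (SE 0.13, adjusted p = 0.146). Left out in turn, the arrays gave Pmvk differences from 0.29 to 0.55.

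Hmgcs1, the cytosolic synthase that makes HMG-CoA and whose promoter window held the sterol regulatory element, read 10.38 and 10.00 in heterozygotes against 10.64 and 10.49 in knockouts. The difference was 0.37 (SE 0.14, adjusted p = 0.209). Without heterozygous array 2 it was 0.18, and leaving out array 1 in its place gave 0.56 (adjusted p = 0.044). Idi1, the isomerase that interconverts the isoprenoid building blocks, read 9.28 and 8.70 against 9.33 and 9.55. Its difference was 0.45 (SE 0.18, adjusted p = 0.217), but heterozygous array 1 lay only 0.05 below knockout array 1, and without heterozygous array 2 the difference was 0.16. A second Idi1 probe set gave 0.44 (SE 0.19), close to the first.

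The other mevalonate genes differed by less. Mvd, the decarboxylase that closes the mevalonate steps, was higher by 0.19 (SE 0.12), and Fdps, which makes farnesyl diphosphate, by 0.08 (SE 0.12). Mvk, mevalonate kinase, differed by 0.06 (SE 0.11). Ggps1, which draws farnesyl diphosphate away from sterols to make geranylgeranyl diphosphate, was the exception in direction, at -0.23 (SE 0.12, adjusted p = 0.333), with both knockout arrays below the heterozygous range. Its values were 8.94 and 8.90 in heterozygotes against 8.58 and 8.80 in knockouts.

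From squalene to cholesterol, 10 of 11 genes were higher, against 54.2% of all tested probe sets. Their median was 0.23, with a range from -0.0027 to 0.72. Heterozygous array 2 was the lowest array for all 11. Of the 11, 4 had both knockout arrays above both heterozygous arrays, or 36.4% against 27.8% of all tested probe sets. In the other 7, heterozygous array 1 lay above at least 1 knockout array. Without heterozygous array 2 the median of the 11 was 0.05.

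Hsd17b7, the enzyme that reduces the sterol 3-ketone during removal of the C4 methyl groups, had the largest difference of the members. It read 9.45 and 9.12 in heterozygotes against 9.83 and 10.19 in knockouts. The lower knockout array stood 0.38 above the higher heterozygous array. Hsd17b7 rose by 0.72 (SE 0.15, adjusted p = 0.046, n = 2 per genotype), a fold of 1.65, and with 1 array left out its difference ran from 0.55 to 0.90. The call was narrow: adjusted p was 0.141 without heterozygous array 2, 0.158 without knockout array 2, 0.082 without a filter, 0.068 without a variance trend and 0.178 with probe sets of several genes tested too, and it passed in the other 9 of 14 alternatives.

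Lss, lanosterol synthase, which closes squalene epoxide into the first sterol, read 8.65 and 8.01 in heterozygotes against 8.96 and 8.98 in knockouts. The knockout arrays differed by 0.02 and the heterozygous arrays by 0.63, so that most of its spread came from the heterozygous pair. The difference was 0.64 (SE 0.18, adjusted p = 0.103), with 0.32 remaining without heterozygous array 2 and 0.95 without heterozygous array 1 (adjusted p = 0.0065). Dhcr7, the reductase of the last step to cholesterol in 1 branch of the pathway, read 9.68 and 9.42 against 9.95 and 9.81. Its difference was 0.33 (SE 0.13, adjusted p = 0.209), or 0.20 without heterozygous array 2, and both knockout arrays stayed above the heterozygous range.

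Among the remaining sterol genes, those acting on the C14 and C4 positions were higher by 0.16 to 0.28. Tm7sf2, a sterol C14 reductase, was the only one of these with groups that did not overlap, at 0.26 (SE 0.12, adjusted p = 0.302). Cyp51, the C14 demethylase, differed by 0.22 (SE 0.15), Msmo1, the C4 methyl oxidase, by 0.16 (SE 0.16) and Nsdhl, the C4 decarboxylase, by 0.28 (SE 0.16). Leaving out heterozygous array 2 brought Cyp51, Msmo1 and Nsdhl to 0.04, -0.06 and 0.03. Ebp, the sterol isomerase, differed by 0.23 (SE 0.14), and Sqle, which forms squalene epoxide, by 0.19 (SE 0.13).

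Fdft1, squalene synthase, differed by 0.08 (SE 0.13) on the probe set of highest mean and by 0.25 (SE 0.18) on a second one, so that its probe sets disagreed in size. Sc5d, the sterol C5 desaturase, read 10.04 and 9.44 in heterozygotes against 9.71 and 9.77 in knockouts, both knockout values inside the heterozygous range. Its difference of -0.0027 (SE 0.17) became -0.30 without heterozygous array 2 and 0.30 without heterozygous array 1, and it was 0.10 with the values as deposited.

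**Figure D2:**
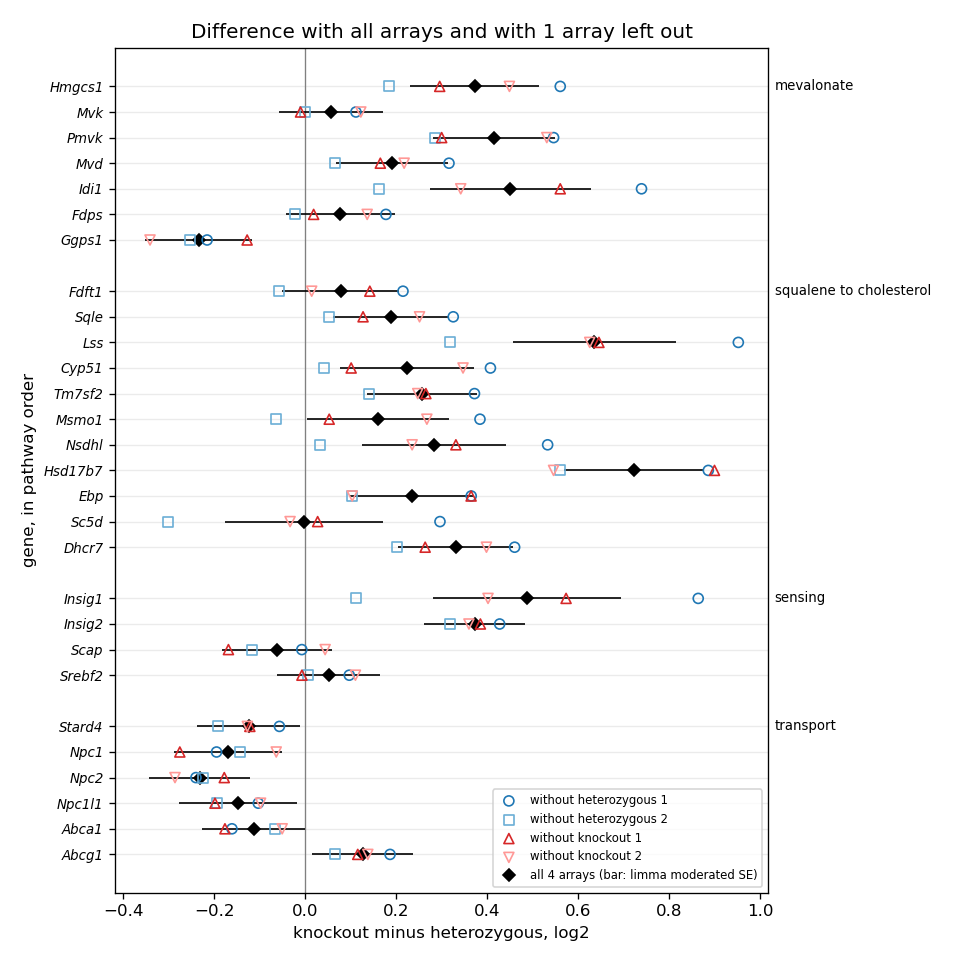
Knockout minus heterozygous difference (log2) of each sterol gene with all 4 arrays (black diamonds, bars show limma's moderated SE) and with 1 array left out (open symbols). Leaving out heterozygous array 2 (pale squares) moves Insig1 from 0.49 to 0.11 and Sc5d from -0.0027 to -0.30. With 1 array left out the sign can turn for Sc5d, Msmo1, Fdft1, Fdps, Mvk, Scap and Srebf2. Every other gene, the 6 transport genes included, keeps its sign whichever array is left out.

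Of the sensing genes, both Insig genes read higher, while Scap and Srebf2 differed by -0.06 and 0.05. Insig2, which in liver is known from a transcript that does not depend on SREBP, read 10.63 and 10.52 in heterozygotes against 10.94 and 10.96 in knockouts. The gap within each genotype, 0.11 and 0.03, was smaller than the 0.31 between the nearest arrays of the groups. The difference was 0.37 (SE 0.11, adjusted p = 0.123) and ran from 0.32 to 0.43 with 1 array left out, the narrowest such range among the 8 genes with an unadjusted p under 0.05.

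Insig1, itself a target of SREBP2, differed more between the heterozygous mice than any other member. It read 10.89 and 10.14 in heterozygotes against 10.91 and 11.08 in knockouts, so that heterozygous array 1 lay 0.03 below knockout array 1. The difference was 0.49 (SE 0.21, adjusted p = 0.252), but 0.11 without heterozygous array 2 and 0.86 without heterozygous array 1 (adjusted p = 0.010). The heterozygous gap was 0.75. A difference between Insig1 and Insig2 was not tested.

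Scap, the escort of SREBP2, read 9.74 and 9.63 in heterozygotes against 9.73 and 9.52 in knockouts, groups that overlapped. Its difference was -0.06 (SE 0.12, adjusted p = 0.829), and it turned to 0.04 with the values as deposited and 0.07 after median centring. Srebf2, which encodes SREBP2, differed by 0.05 (SE 0.11, adjusted p = 0.852) and was -0.0070 without knockout array 1. Transcript level does not measure cleavage of SREBP2.

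The transport genes showed the opposite direction with small sizes, and their median was as low without heterozygous array 2. All 6 differences lay between -0.23 and 0.13, none at an unadjusted p under 0.05. In 5 of the 6, both knockout arrays lay below both heterozygous arrays, or 83.3% against 22.1% of all tested probe sets. Most of these separations were small beside SEs of 0.11 to 0.13. Between the nearest arrays, knockout minus heterozygous was -0.0029 for Abca1, -0.04 for Npc1, -0.05 for Stard4 and Npc1l1, and -0.17 for Npc2. The median was -0.17 when heterozygous array 2 was left out and -0.13 when array 1 was, and ran from -0.18 to -0.08 over all 4 arrays left out in turn. It was -0.07 with the values as deposited and -0.03 after median centring, settings in which the median of all tested probe sets moved to 0.07 and 0.10.

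Npc2, the soluble lysosomal protein that hands cholesterol to NPC1, read 9.75 and 9.76 in heterozygotes against 9.47 and 9.58 in knockouts. Its difference was -0.23 (SE 0.11, adjusted p = 0.305), with the nearest arrays of the groups apart by more than either pair. Npc1, the lysosomal membrane protein that exports the cholesterol, read 10.17 and 10.22 against 10.14 and 9.92. The difference was -0.17 (SE 0.12, adjusted p = 0.494), and it was -0.06 without knockout array 2. Npc1l1, a sterol importer known from the gut, read 7.45 and 7.36 against 7.31 and 7.21, with a difference of -0.15 (SE 0.13), and it was the 1 member under the stricter filter at the 50th percentile.

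Stard4, a cytosolic sterol carrier that SREBP2 is known to induce, differed by -0.12 (SE 0.11), in the direction opposite to most synthesis genes. The cholesterol exporters Abca1 and Abcg1, both targets of the oxysterol receptor LXR, had differences of opposite sign. Abca1 differed by -0.11 (SE 0.11), or 0.03 after median centring, and Abcg1 by 0.13 (SE 0.11). Neither passed.

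Other genes of the pathway were taken from lists drawn up by role. Of 10 measured genes of SREBP processing, sterol-regulated turnover and related steps, 8 were higher, against 54.2% of all tested probe sets, with a median of 0.10. In limma 0 of 9 tested passed the adjusted threshold, against 1.98% of all tested probe sets. At an unadjusted p under 0.05, 1 of the 9 was higher, a share close to the 11.6% of all tested probe sets. Lbr, which has the same C14 reductase activity as Tm7sf2, differed by 0.34 (SE 0.13, adjusted p = 0.192), Paqr3 by -0.19 (SE 0.11) and Erlin2, which takes part in sterol-regulated degradation, by 0.18 (SE 0.12).

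All 14 measured genes that use isoprenoids for prenylation, dolichol or ubiquinone were higher, by 0.0070 to 0.62, where 54.2% of all tested probe sets were. All 14 were also higher with the values as deposited and after median centring, where 61.6% and 67.5% of all tested probe sets were. Heterozygous array 2 was the lowest of the 4 arrays for 11 of the 14, against 41.1% of all tested probe sets. At an unadjusted p under 0.05, 4 of the 14 were higher, against 11.6% of all tested probe sets. The adjusted threshold was passed by 1 gene, against 1.98% of all tested probe sets. That gene was Fntb, the beta subunit of farnesyltransferase, which read 7.38 and 7.29 in heterozygotes against 7.995 and 7.92 in knockouts. Fntb rose by 0.62 (SE 0.12, adjusted p = 0.034), and it passed in 8 of the 13 alternatives that tested it. The call ended without heterozygous array 2 (0.57, adjusted p = 0.064), knockout array 1 (0.249) or knockout array 2 (0.103), without a filter (0.072) and with probe sets of several genes tested too (0.131). Pdss2, which makes the ubiquinone tail, differed by 0.46 (SE 0.13, adjusted p = 0.102) and Dhdds, which makes the dolichol chain, by 0.36 (SE 0.11, adjusted p = 0.134). Without heterozygous array 2, 13 of the 14 were higher and the median was 0.12, compared with 0.20 over all 4 arrays.

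Among 21 measured genes of sterol storage, oxysterols, uptake and LXR, 14 were higher, against 54.2% of all tested probe sets, with a median of 0.12. In limma 0 of 19 tested passed the adjusted threshold, against 1.98% of all tested probe sets. At an unadjusted p under 0.05, 5 of the 19 were higher, against 11.6%. Lpcat3, an LXR target that remodels phospholipids, differed by 0.55 (SE 0.15, adjusted p = 0.093), Vldlr, a lipoprotein receptor, by 0.48 (SE 0.12, adjusted p = 0.078) and Gramd1a, which carries sterol from the plasma membrane to the endoplasmic reticulum, by 0.37 (SE 0.12, adjusted p = 0.147). Mylip, another LXR target, differed by -0.18 (SE 0.12), so the LXR targets named here, Abca1, Abcg1, Lpcat3 and Mylip, had differences of both signs, and none passed the adjusted threshold.

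Markers of cell types that whole skin can hold moved in the same arrays. Of 12 measured sebocyte genes, 10 were higher, against 54.2% of all tested probe sets, with a median of 0.60. The summed linear signal of the sebocyte genes was 27271 and 21068 in heterozygotes against 34772 and 34110 in knockouts. The lower heterozygous value was that of array 2, as it was for the adipocyte, keratinocyte, fibroblast and macrophage lists below. It was also so for the synthesis enzymes, whose sum was 14803 and 11633 in heterozygotes against 15517 and 15313 in knockouts. The ratio of knockout to heterozygous sums was 1.43 for the sebocyte genes and 1.17 for the synthesis genes.

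All 12 skeletal muscle genes were higher (ratio of sums 1.44), and there the heterozygous sums were 50577 and 51014 against 79362 and 66626 in knockouts, so heterozygous array 2 was not the lower one. Adipocyte genes, 5 of 9 higher (ratio 1.04), had heterozygous sums of 23406 and 17013 with both knockout sums of 19771 and 22072 between them. Keratinocyte genes gave 8 of 12 higher (sums 59636 and 49446 against 59395 and 53458), fibroblast genes 4 of 8 (39434 and 33370 against 34791 and 36553) and macrophage genes 3 of 12 (9079 and 7591 against 7075 and 7715). None of these listed markers but Msr1, of macrophages, lay under the filter. The part of any of these cell types in the sterol differences was not tested.

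**Figure D3:**
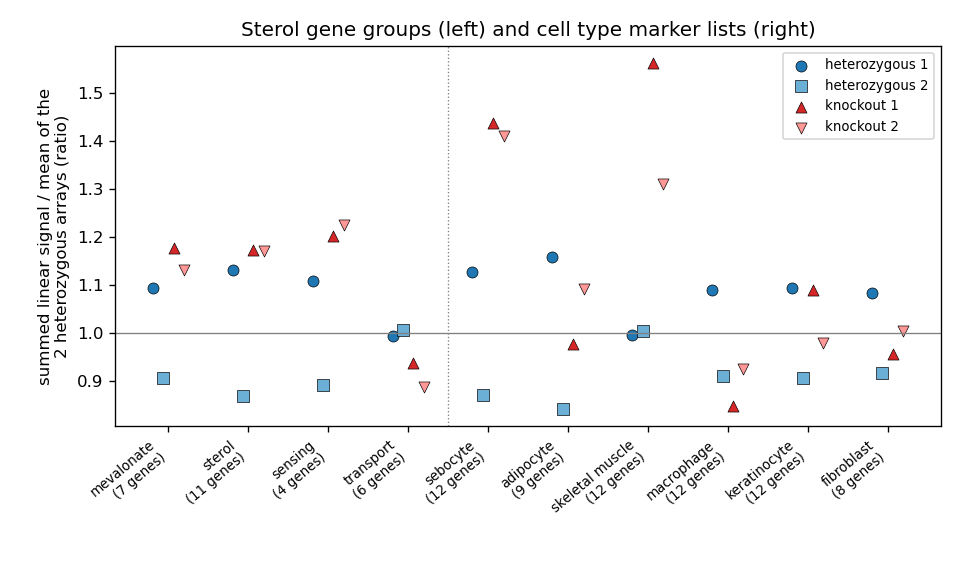
Summed linear signal of the sterol gene groups (left of the dotted line) and of cell type marker lists (right), each divided by the mean of the 2 heterozygous arrays; each point is 1 mouse. Mevalonate, sterol, sensing and sebocyte sums share the order of heterozygous array 2 lowest, heterozygous array 1 next and both knockout arrays highest, and the transport sums do not.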

How the data were processed

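Total RNA of whole back skin was hybridised to 4 whole-transcript arrays, 2 per genotype. Signals were made with PLIER 2.0 and Affymetrix Expression Console 1.1.1, per the submitters' processing notes. The genome build and any step between arrays were not given in the sources used here. The deposited values are 35557 probe set signals, taken as log2 from their range (2.54 to 14.9). Array medians ran from 7.45 to 7.54 and a quartile varied by as much as 0.34 between arrays, and quantile normalization was applied. PLIER averages probes along a transcript and can hide a change in part of it.

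The annotation paired 21789 probe sets with 1 gene, and symbols of 21698 were updated through the gene identifier. Tested were the 16341 of these above the 25th percentile of mean signal, that is above 6.67. Knockout was compared with heterozygote by limma 3.58.1 in R 4.3.3 (lmFit, eBayes with a trend, two-sided, Benjamini-Hochberg over all tested probe sets, threshold 0.05), with 2 residual degrees of freedom; SEs are moderated. The test was checked on simulated data with independent errors, which held no shift shared across an array such as that of heterozygous array 2. An exact permutation of 2 against 2 arrays cannot give p below 0.333. The labels call the mice littermate replicates, and p-values measure the spread between these arrays. Limma added 7.73 prior degrees of freedom from all tested probe sets, so a gene's p does not rest on its own spread alone.

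Members, lists and tests were chosen with earlier results of these data known. Every member is given with its difference. Values per array are given for members at an unadjusted p under 0.05, the 3 of each role with the smallest p, and a few others (Sc5d, Ggps1, Fntb) chosen after their values were seen, as was limiting the printed promoters to members at an unadjusted p under 0.05. From each list of other genes the 3 with the smallest p are named, and Mylip was added after its value was seen. Medians and counts of higher genes cover all members with a probe set. Alternatives were the values as deposited, median centring, no filter or a 50th percentile filter, no trend or a robust prior, 1 probe set per gene or the mean of a gene's probe sets, a replicate block and each array left out. Testing probe sets of several genes too was added after the data were seen.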

Additional observations from a re-analysis of the deposited data

How the results depend on the processing

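Over the 14 alternatives, 20 of the 28 genes kept the sign of their difference, 15 higher and 5 lower. The filter, the trend, the prior, 1 probe set per gene, the replicate block and the added probe sets leave a difference as it is. Signs could turn only with the scaling, with an array left out or, for Fdft1 and Idi1, with the mean of their probe sets. The count of all probe sets past the adjusted threshold, 323, was 544 with the values as deposited, 913 after median centring, 145 without a filter and 0 of 17557 with probe sets of several genes tested too (limma; 1692 higher and 1021 lower at an unadjusted p under 0.05); with 1 array left out it ran from 77 (without knockout array 1) to 986 (without heterozygous array 1). The 8 members higher at an unadjusted p under 0.05 became 3 (without heterozygous array 2, where 6.92% of all tested probe sets were higher at that p) to 15 (without heterozygous array 1, where 16.2% were), and the 0 lower became 0 to 1 (Ggps1, without knockout array 2, where 4.28% of all were lower). The sterol median, 0.23, ran from 0.053 to 0.38 with 1 array left out. The median of sensing and transport genes together, -0.09, was 0.015 with the values as deposited, 0.051 after median centring and from -0.14 to -0.0032 with 1 array left out.

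Signs turned for Abca1 after median centring (0.027), for Sc5d (0.10) and Scap (0.039) with the values as deposited and for both after median centring (0.14 and 0.074). With 1 array left out, Sc5d ran from -0.30 to 0.30, Msmo1 from -0.064 to 0.38, Fdft1 from -0.058 to 0.22, Fdps from -0.022 to 0.18, Mvk from -0.010 to 0.12, Scap from -0.17 to 0.044 and Srebf2 from -0.0070 to 0.11. The cause was not tested.

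When the replicate number of the titles was fitted as a replicate block, 1235 probe sets passed, among them Hsd17b7, Lss and Pmvk of the members. Deviations of same-numbered arrays correlated at 0.17 over the tested probe sets, and the labels do not say that the number marks a shared litter. A fit without 1 array takes the spread of the single array that is left from the other genotype. Signal near background compresses differences, which bears most on Npc1l1.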
